A study of Rattus norvegicus with 10 samples.

Results

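The most abundant annotated transcripts of sham-operated rat cortex are described here, with the level, rank order and share of total expression they had after a stroke model. Levels are the FPKM values of the authors (fragment counts divided by transcript length and library total). The members were chosen by their mean FPKM in both groups: each carried an Ensembl transcript identifier, reached a sham mean of 100 FPKM or more, and kept an MCAO/R mean above 0.5 of its sham mean. This gave 237 of the 26001 annotated transcripts in an mRNA table of 364224 rows. In all, 247 annotated transcripts reached 100 FPKM in sham. Of the other 10, 7 had an MCAO/R mean at or below 0.5 of the sham mean, and 3, with sham means from 3067 to 9218 FPKM, were left out by name. Ranks from 1 to 237 below are ranks of members by sham mean.

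The libraries came from total RNA, depleted of ribosomal RNA, of the cerebral cortex of male Sprague-Dawley rats aged 8 to 9 weeks and weighing 240 ± 20 g. Sham libraries (replicates 6 to 10) came from rats given sham surgery, and MCAO/R libraries (replicates 1 to 5) from rats given 2 h of middle cerebral artery occlusion and 24 h of reperfusion. The labels used here do not state the side and region of cortex sampled, nor whether each library came from a separate rat, so the spread between replicates may be partly technical. Sequencing depth is unknown, because FPKM values keep no totals of reads.

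The middle cerebral artery supplies much of the lateral cortex, and its transient occlusion is a model of ischaemic stroke in which blood flow returns. In most tissues a small part of the expressed transcripts makes up much of the messenger RNA. In cortex, as general background, such transcripts include those for mitochondrial respiration, ribosomal proteins, the cytoskeleton, synaptic vesicles, calcium signalling, energy metabolism, myelin and astrocyte products. Ischaemia kills or silences neurons, while glial and infiltrating immune cells become reactive, so the relative levels of these classes can shift. Which member belongs to which class is not stated here, because 0 of the 237 identifiers matched the reference table of rat genes used and neither deposited table pairs them with symbols. Gene lists by function and markers of cortical cell types were therefore not examined, and no promoter sequence could be assigned to a member. In bulk tissue, fewer cells of a type and less RNA per cell cannot be told apart.

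Sums of FPKM over the whole mRNA table were higher in MCAO/R than in sham libraries, from 322304 to 350614 against 277753 to 308850, without overlap. The sums of annotated rows were 186710 ± 6050 in MCAO/R and 156991 ± 16944 in sham (SD, n = 5 each). Statements on absolute level therefore depend on which total a library is scaled to. Values below are as deposited unless another scaling is named. Sham replicate 7 had the lowest annotated sum, 128381 FPKM, and the highest share of assembled transcripts, 53.8% of the mRNA table against 43.3% to 46.4% in the other 9 libraries. The part of that library in the results was tested only by leaving it out.

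As a set, the members held a similar share of the mRNA table in both groups. They were chosen by a rule that removed larger falls, so this similarity follows in part from the choice. They also do not include the annotated transcripts left out by name, which had higher sham means than any member. Their summed level was 57555, 58257, 67597, 61709 and 68376 FPKM in MCAO/R replicates 1 to 5, and 59997, 47858, 54469, 53662 and 56912 FPKM in sham replicates 6 to 10. The groups overlapped, with MCAO/R replicates 3 and 5 highest and sham replicate 7 lowest. The mean was 62699 ± 5084 FPKM in MCAO/R and 54579 ± 4495 FPKM in sham (SD, n = 5 each), a ratio of 1.15. This ratio turned to 0.963 when the libraries were given equal sums over annotated rows.

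As a share of all FPKM in the mRNA table, the members held 17.3%, 18.1%, 20.6%, 17.8% and 19.5% in MCAO/R replicates 1 to 5. In sham replicates 6 to 10 they held 19.4%, 17.2%, 18.5%, 18.3% and 18.8%. The means of 18.6 ± 1.4% and 18.4 ± 0.8% (SD, n = 5 each) differed by 0.20 percentage points, less than the spread between replicates in either group. That small difference changed sign without MCAO/R replicate 3 (-0.29), MCAO/R replicate 5 (-0.015) or sham replicate 7 (-0.11). As a share of annotated rows alone, the members held 33.6 ± 2.7% in MCAO/R and 34.9 ± 1.6% in sham, again within the spread. No test was made on these sums and shares, because the rule chose the members from both group means.

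**Figure D1:**
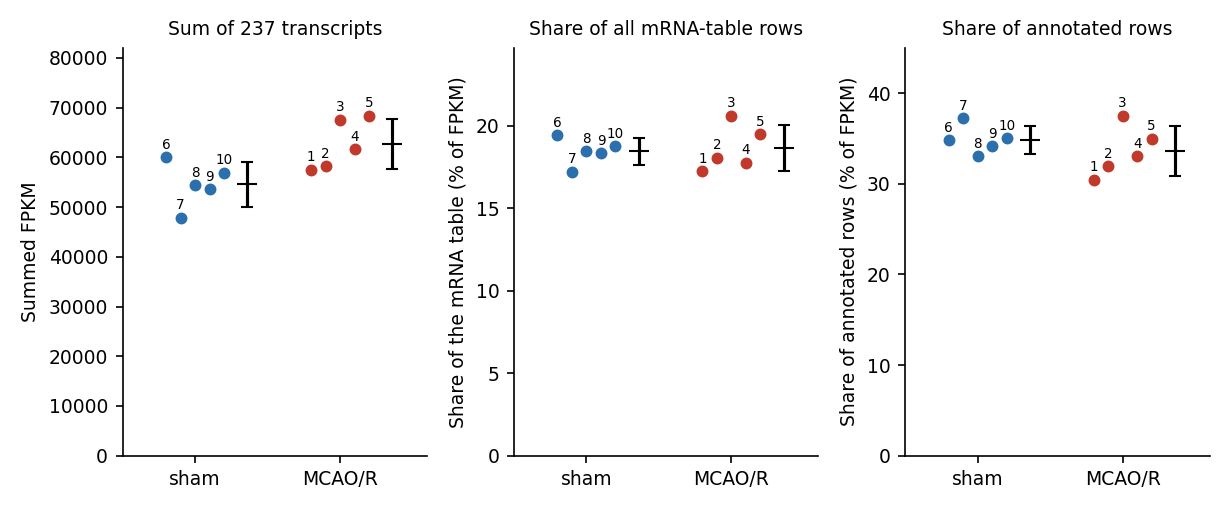
Summed FPKM of the 237 transcripts (left), their share of all rows of the mRNA table (middle) and their share of annotated rows (right), by library. Points are single libraries with their replicate number, and the bars beside them show the mean and SD of 5 libraries. The sums lie at 62699 against 54579 FPKM on average, while the shares of the mRNA table lie at 18.6% and 18.4% and overlap.

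The rest of the annotated transcripts, without the 3 left out by name, summed to 109219 ± 3174 FPKM in MCAO/R and 86866 ± 8373 FPKM in sham, a ratio of 1.26 that became 1.06 with equal sums over annotated rows. Their groups did not overlap under either. With equal sums, the rest is a fixed total minus the members and the 3 left out, so its ratio is not independent of theirs. The remaining transcripts also lie outside a set chosen by sham level, so a higher ratio follows in part from the choice. As a share of the mRNA table they held 32.5 ± 0.8% in MCAO/R and 29.4 ± 2.0% in sham, and there the groups overlapped. The number of annotated transcripts with a mean of at least 100 FPKM was 305 in MCAO/R. Of these, 80 had a sham mean under 100 FPKM and so lay outside the rule, while 16 members had an MCAO/R mean under 100 FPKM, the lowest at 68.1 FPKM. The 16 leave out the 7 transcripts that the rule removed for a larger fall, so the 2 counts are not alike. Because the members were chosen for their sham level, some exchange of this kind follows from the choice. The same rule turned round, with an MCAO/R mean of at least 100 FPKM and a sham mean above 0.5 of it, gave 254 transcripts. It shared 213 with the members, which is 89.9% of the members and 83.9% of the other list. Its share of the mRNA table differed between groups by 0.13 percentage points, beside 0.20 for the members. As the lists share most of their transcripts, these differences are not independent.

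Within the set, levels shifted in both directions. The median level of a member was 191 ± 11 FPKM in MCAO/R and 159 ± 18 FPKM in sham libraries (SD, n = 5 each). With equal sums over annotated rows it was 176 ± 12 and 174 ± 5 FPKM. Of the 237 members, 167 (70.5%) had an MCAO/R mean within 1.5-fold of the sham mean, 53 lay above that range and 17 below it. The same held for 55% of the 10105 annotated transcripts tested, most of them at lower levels. The rule itself removes members that fell to 0.5 of the sham mean or less, so the count below the range is cut by construction.

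Differences on the log2(FPKM + 1) scale, MCAO/R minus sham, had a median of 0.15 over members, with quartiles at -0.12 and 0.54, against a median of 0.20 over all annotated transcripts tested. The difference was above 0 in 161 members and below 0 in 76. With equal sums over annotated rows the median over members was -0.10, with quantile normalization -0.068, and with equal sums over the annotated rows outside the set -0.18. The median over all features tested in each fit moved at the same time from 0.11 to -0.074, -0.050 and -0.129. Over annotated transcripts tested it moved from 0.20 to 0.017, 0.039 and -0.039, and lay above the median over members in each of these fits. Since the rule used both group means, nothing is read from that distance. A direction for the set as a whole is therefore not given.

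**Figure D2:**
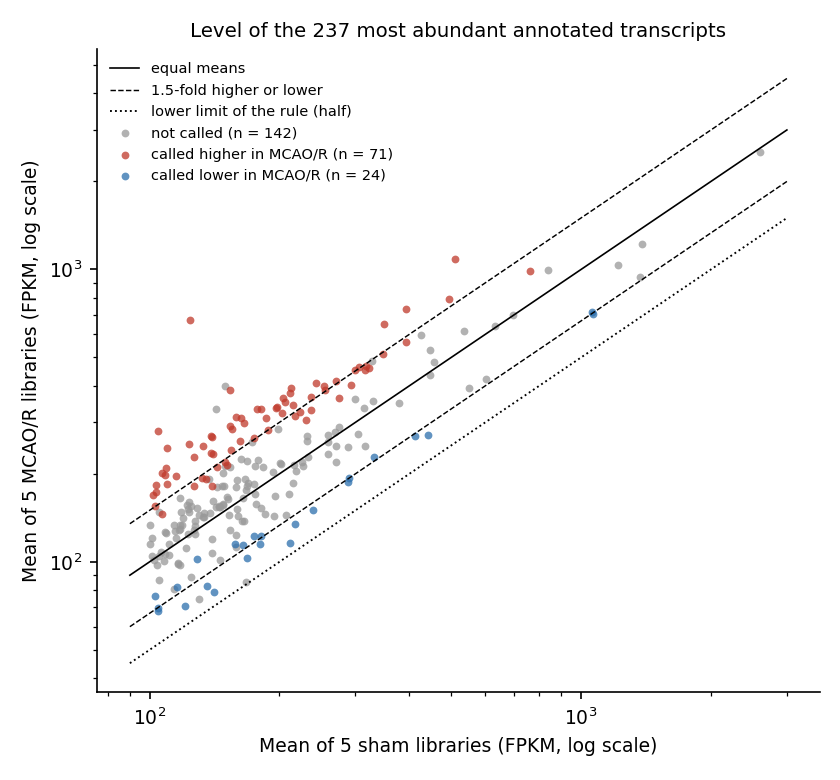
Mean FPKM in 5 sham libraries (x axis) and in 5 MCAO/R libraries (y axis) of each of the 237 transcripts, both on log scales. Colour shows the call by limma at an adjusted p under 0.05 over all features of the mRNA table, the solid line equal means, the dashed lines 1.5-fold differences and the dotted line the lower limit of the rule. Most points, 167 of 237, lie between the dashed lines, with 71 called higher and 24 called lower.

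The call of single transcripts used limma, a linear model with moderated variances, fitted on the 25038 features whose mean reached 0.5 FPKM. Calls were made at a Benjamini-Hochberg adjusted p under 0.05. All 237 members passed that filter. It called 71 members higher and 24 lower in MCAO/R, beside 14.3% of all features called higher and 5.19% called lower (19.5% in either direction). Among annotated transcripts the shares were 17.8% higher and 2.84% lower. Since the rule used the same contrast, these counts are a description and nothing is read from their distance to the background. The split depended on scaling, and that of the whole table moved with it. With equal sums over annotated rows it was 54 higher and 53 lower, beside 8.68% and 9.63% of all features. With quantile normalization it was 53 and 55, beside 9.38% and 10.4%. With equal sums over annotated rows outside the set it was 44 and 75, beside 7.75% and 13.2%. It also depended on single libraries for the lower calls, which numbered 11, 15, 12, 15 and 13 without MCAO/R replicate 1, 4 or 5 or sham replicate 8 or 9. Over all features the lower calls in these fits numbered 703 to 904, against 1300 with all libraries.

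Every MCAO/R library lay above every sham library for 74 members and below for 11, beside 15.9% and 1.92% of all annotated transcripts tested. The 11 became 23 without MCAO/R replicate 3, beside 4.16% of annotated transcripts, and 21 without sham replicate 7, beside 3%. With equal sums over annotated rows, 42 members lay below without overlap, beside 4.85%.

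The spread between replicates, which the rule did not use, was small for most members. The median coefficient of variation was 14.4% over the 5 sham libraries and 13.4% over the 5 MCAO/R libraries. It was under 20% in both groups for 155 members. For the 2615 other annotated transcripts with a mean from 10 to 100 FPKM, the medians were 16.3% and 17.5%. The coefficient exceeded 50% in 11 members in sham and in 9 in MCAO/R.

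Of the 10 highest members, 8 had groups that overlapped, 2 lay lower in MCAO/R without overlap and 0 lay higher without overlap. The transcripts ranked 9 and 10 differed by less than the spread between replicates: that of rank 9 stood at 700 ± 54 FPKM in MCAO/R and 694 ± 116 FPKM in sham, and that of rank 10 at 642 ± 60 and 631 ± 93 FPKM (SD, n = 5 each). Rank 7 stood at 992 ± 54 against 839 ± 128 FPKM, and that of rank 8 at 986 ± 107 against 762 ± 78 FPKM. The ranges of both overlapped between the groups. That of rank 8 was called higher, a call lost with either equal-sum scaling and without any 1 of 8 of the 10 libraries.

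Ranks 5 and 6 were the members of the highest level with groups that did not overlap. That of rank 5 stood at 694, 613, 845, 797 and 571 FPKM in MCAO/R replicates 1 to 5 and at 1056, 1132, 1091, 1003 and 1053 FPKM in sham replicates 6 to 10. The lowest sham library, at 1003 FPKM, lay above the highest MCAO/R library, at 845 FPKM, with a difference of -0.61 with an SE of 0.12 on the log2 scale. That of rank 6 stood at 698, 476, 903, 850 and 644 FPKM in MCAO/R and at 1063, 1054, 1020, 1117 and 1042 FPKM in sham. Its difference was -0.60 with an SE of 0.16, and it was no longer called without MCAO/R replicate 1 or 5 or sham replicate 9 or 10. In both, the sham libraries lay close together, with coefficients of variation of 4.5% and 3.4%, and the MCAO/R libraries spread more, at 16.6% and 23.8%. MCAO/R replicate 3 was the highest of its group in both.

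Rank 2 stood at 1225 ± 413 FPKM in MCAO/R and 1388 ± 186 FPKM in sham, and rank 3 at 939 ± 443 and 1368 ± 688 FPKM, both with overlapping groups. Ranks 1 and 4 differed many-fold among replicates of the same group and are described with the uneven transcripts below.

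By the size of the rise among called members whose groups did not overlap, ENSRNOT00000001518 and ENSRNOT00000014177 came first. ENSRNOT00000001518, rank 224, stood at 280, 246, 291, 288 and 299 FPKM in MCAO/R replicates 1 to 5 and at 136, 124, 85.8, 140 and 39.2 FPKM in sham replicates 6 to 10. The MCAO/R libraries lay within a narrow band and the sham libraries were scattered below it, with sham replicate 10 lowest. The difference was 1.54 with an SE of 0.31 on the log2 scale. ENSRNOT00000014177, rank 129, stood at 482, 311, 316, 388 and 437 FPKM in MCAO/R and at 184, 129, 174, 147 and 135 FPKM in sham, a difference of 1.32 with an SE of 0.15.

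The highest member with a rise of this size was that of rank 14, which reached rank 3 in MCAO/R. It stood at 1114, 1010, 1097, 1057 and 1145 FPKM in MCAO/R replicates 1 to 5 and at 547, 441, 550, 485 and 529 FPKM in sham replicates 6 to 10. Both groups were tight, with coefficients of variation of 4.8% and 9.1%, and the difference was 1.09 with an SE of 0.09. The other 3 of the 6 largest rises, ranks 210, 184 and 125, had differences of 1.14, 1.11 and 0.99.

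Among called members whose groups did not overlap, ENSRNOT00000014491 and ENSRNOT00000028069 had the largest falls. The transcripts of ranks 73, 153, 164 and 19 were also called lower, with differences from -0.85 to -0.72, and their groups overlapped. ENSRNOT00000014491, rank 191, stood at 68.8, 64.1, 85.4, 75.2 and 58.8 FPKM in MCAO/R replicates 1 to 5 and at 136, 119, 126, 122 and 99.4 FPKM in sham replicates 6 to 10. Every sham library lay above the highest MCAO/R library, replicate 3, and the difference was -0.77 with an SE of 0.12. ENSRNOT00000028069, rank 106, stood at 111, 70.6, 107, 131 and 96.9 FPKM in MCAO/R and at 205, 136, 177, 156 and 169 FPKM in sham. Its difference was -0.72 with an SE of 0.17, and the gap between the groups was narrow, from 131 to 136 FPKM. The other 4 of the 6 largest falls were ranks 67, 55, 21 and 5, with differences from -0.70 to -0.61. All 12 of these transcripts kept their direction under every scaling. They were picked for large differences, so rescaling the libraries could hardly turn the direction. With any 1 library left out they kept it too, which is fixed by the choice of groups that do not overlap. The rule keeps falls to under 2-fold, so rises and falls cannot be compared in size.

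**Figure D3:**
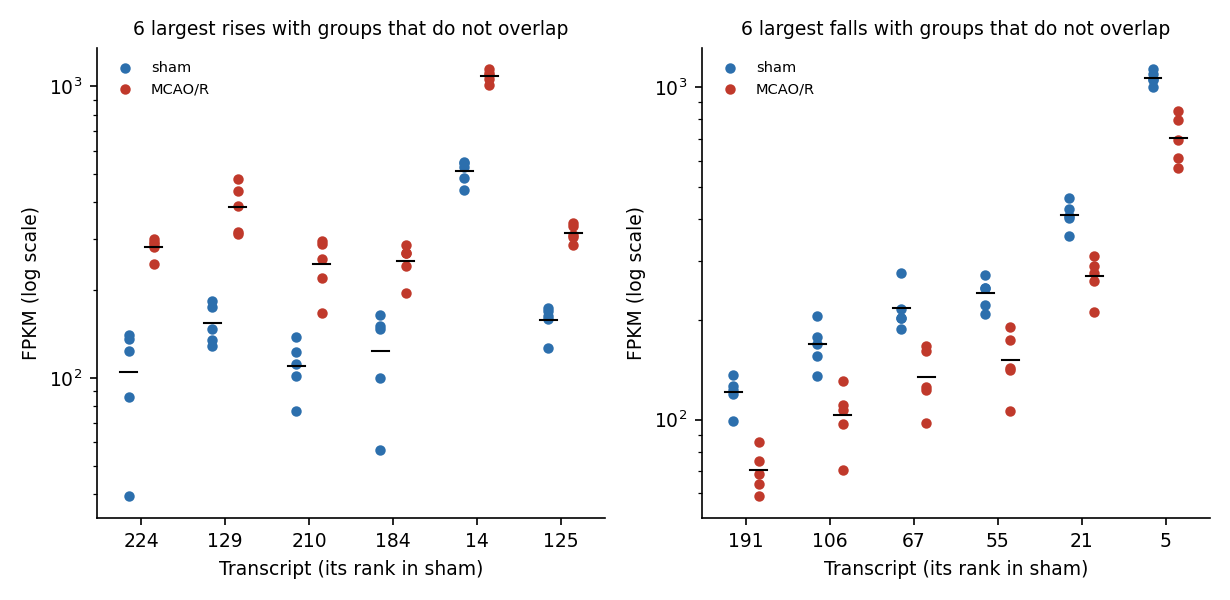
FPKM on a log scale in each library of the 6 called members with the largest rise (left) and the 6 with the largest fall (right) among those whose groups do not overlap, named by their sham rank. Blue points are sham and red points MCAO/R libraries, with a line at the mean of 5. The transcript of rank 14 goes from 511 to 1085 FPKM and that of rank 5 from 1067 to 704 FPKM.

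The largest ratio of means belonged to the transcript of rank 183, which was singled out after its values were seen. It stood at 704, 1029, 698 and 800 FPKM in MCAO/R replicates 2 to 5, at 122 FPKM in MCAO/R replicate 1, and from 98.3 to 165 FPKM in sham libraries. MCAO/R replicate 1 thus lay inside the sham range while the other 4 lay far above it. Its mean placed it at rank 13 in MCAO/R, the largest climb in the set, 170 places.

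Rank order was kept in part. Spearman's rho between the group means over the 237 members was 0.74, and 0.73 between group medians. The rule used both means and removed large falls, which bears on this value. Without the condition on the MCAO/R mean rho was 0.70. Between single libraries it averaged 0.81 within sham (10 pairs, 0.73 to 0.88), 0.85 within MCAO/R (10 pairs, 0.81 to 0.90) and 0.66 between the groups (25 pairs, 0.52 to 0.79). These values are descriptions over transcripts that share libraries. Scaling of whole libraries leaves the values between single libraries as they are, and with equal sums over annotated rows the rho of group means was 0.74 as well. MCAO/R replicate 3 had the highest mean rho with sham libraries, 0.71, and still ranked its transcripts more like its own group, at 0.83.

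**Figure D4:**
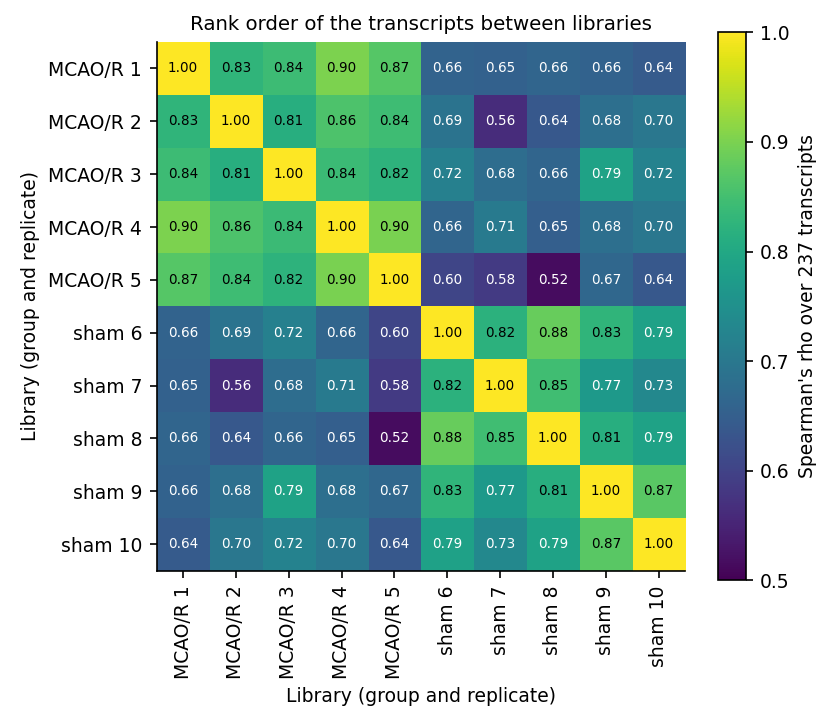
Spearman's rho over the 237 transcripts between each pair of libraries, on a colour scale from 0.5 to 1. The blocks within MCAO/R (0.81 to 0.90) and within sham (0.73 to 0.88) average higher than the block between groups (0.52 to 0.79).

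Of the 10 highest members in sham, 7 were among the 10 highest in MCAO/R, as were 15 of 20 and 36 of 50. By group mean, the first and second ranks were held by the same transcripts in both groups. The first did not lead in each library, as it lay from 6.73 to 30.4 FPKM in MCAO/R replicates 1 and 4 and sham replicates 7 and 8. The median member moved by 26 places among 237. It moved by at most 10 places in 63 members and by more than 50 in 66, of which 30 climbed and 36 dropped. The transcripts are dense at the lower end, where 101 members lay from 100 to 150 FPKM in sham, so small differences in level move them by many places.

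By level in sham, 14 members lay at 500 FPKM or more, 39 from 250 to 500 FPKM, 83 from 150 to 250 FPKM and 101 from 100 to 150 FPKM. The 10 highest members held 16.5 ± 3.3% of the members' sum in MCAO/R and 21.2 ± 3.9% in sham, with overlapping ranges. They were picked by their sham mean, so a higher share in sham follows in part from the choice. The other 227 summed to 52243 ± 2474 FPKM in MCAO/R and 42954 ± 3682 FPKM in sham, without overlap as deposited. With equal sums over annotated rows they summed to 48105 ± 2295 and 47149 ± 2032 FPKM and overlapped.

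Some dominant transcripts were present at high level in some libraries and nearly missing from others of the same group. In 8 members the highest library was at least 10-fold the lowest within sham (5 members), within MCAO/R (6) or within both (3). None of the 8 was called. The most abundant member of all was one of them. Rank 1 stood at 3725, 3790 and 5015 FPKM in MCAO/R replicates 2, 3 and 5 and at 4397, 3892 and 4659 FPKM in sham replicates 6, 9 and 10. In MCAO/R replicates 1 and 4 it was at 14.6 and 19.8 FPKM, and in sham replicates 7 and 8 at 6.73 and 30.4 FPKM. It thus fell into high and low libraries in both groups, and its share of the members' sum ran from 0.0141% to 8.19%. Its similar group means of 2513 and 2597 FPKM do not describe a single library.

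Rank 4, with a range just under 10-fold, stood at 2165 and 1951 FPKM in MCAO/R replicates 3 and 4 and at 2571 and 2553 FPKM in sham replicates 7 and 10. In the other libraries it lay from 240 to 534 FPKM. Rank 141 was at 656 and 335 FPKM in MCAO/R replicates 3 and 4 and at 721 FPKM in sham replicate 7, and from 3.73 to 5.77 FPKM elsewhere. Its sham mean of 148 FPKM, and so its membership, came from sham replicate 7.

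Rank 42 was listed at 0 in MCAO/R replicates 2, 4 and 5 and sham replicates 9 and 10, and lay from 358 to 678 FPKM in the other 5 libraries. Rank 138 was listed at 0 in sham replicates 7 and 8, while the other sham libraries reached 246, 175 and 326 FPKM and all MCAO/R libraries lay from 315 to 453 FPKM. Rank 221 was listed at 0 in MCAO/R replicate 5 and lay from 81.5 to 122 FPKM elsewhere. Single low libraries were also found for ranks 58 (1.78 FPKM in MCAO/R replicate 3), 60 (35.5 FPKM in MCAO/R replicate 3) and 85 (1.64 FPKM in sham replicate 9), which otherwise lay at 65.4 FPKM or more.

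**Figure D5:**
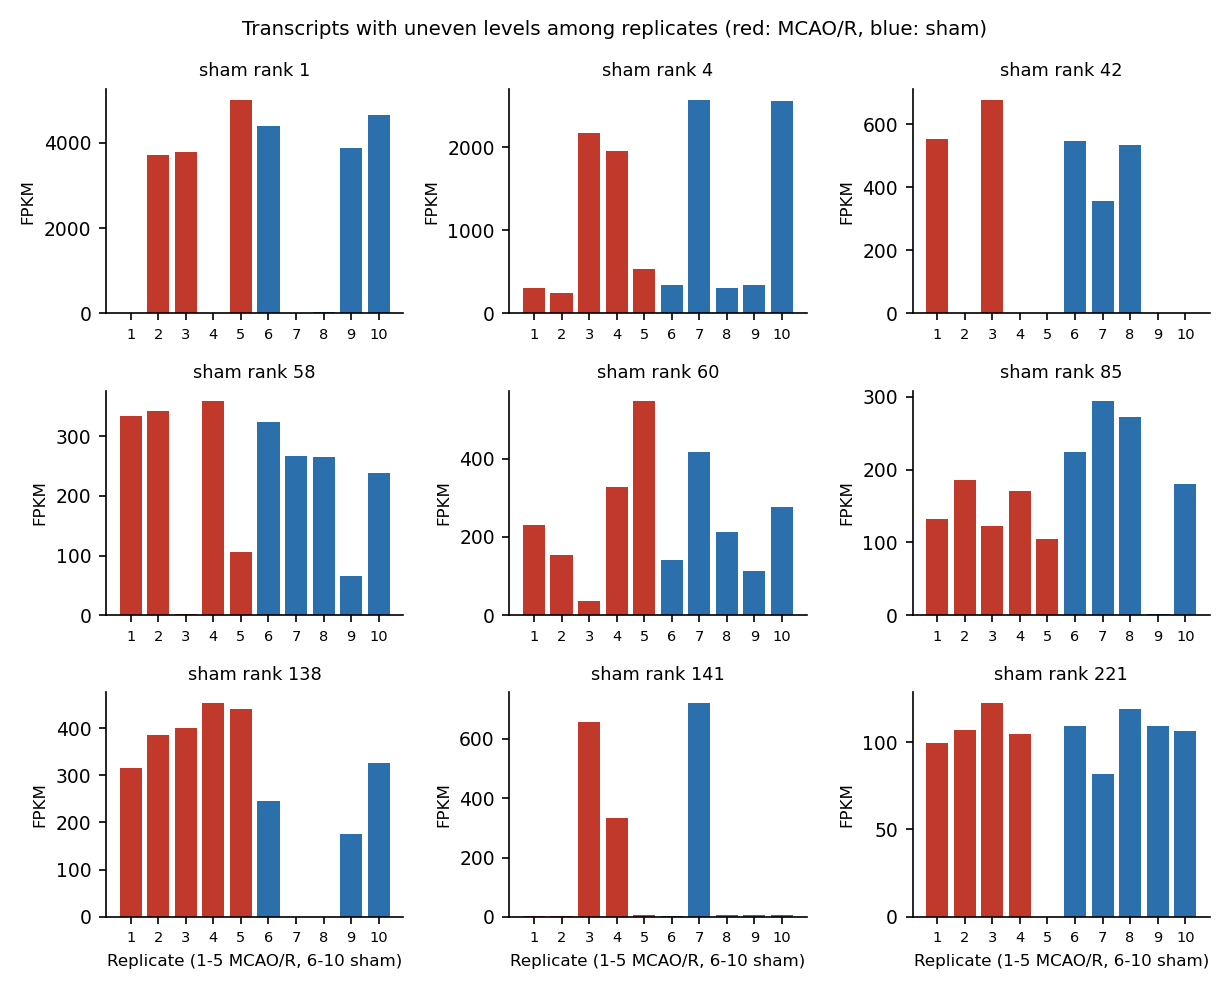
FPKM in each of the 10 libraries (bars, red for MCAO/R replicates 1 to 5 and blue for sham replicates 6 to 10) of the 8 members with at least a 10-fold range within a group and of the member of rank 4. High and low libraries occur in both groups, as for rank 1, at 3725 to 5015 FPKM in 6 libraries and at most 30.4 FPKM in 4.

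Together these 8 transcripts held from 1439 to 6216 FPKM per library. Without them the remaining 229 summed to 58622 ± 3861 FPKM in MCAO/R and 50633 ± 3291 FPKM in sham, a ratio of 1.16 that became 0.969 with equal sums over annotated rows. The rho of group means was then 0.74, as with all members.

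At the threshold of 100 FPKM, the last members had sham means of 100.4 and 100.1 FPKM, and the first transcripts outside had 99.0 and 98.4 FPKM. At the limit of 0.5 for the ratio of means, the lowest members had ratios of 0.509 and 0.547, and the nearest transcripts outside had 0.487 and 0.404. The member at 0.509, rank 108, owed its sham mean of 168 FPKM to 384 FPKM in sham replicate 10, with 77.7 to 145 FPKM in the other sham libraries. Adding the 7 transcripts outside the limit changed the difference in share of the mRNA table from 0.20 to -0.18 percentage points, still within the spread.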

How the data were processed

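The authors deposited 2 tables of FPKM, for mRNA and for lncRNA, with 1 column per library. Per the submitters' processing notes, the rat build was Rnor_5.0. Which aligner, assembler and quantification tool were run, and which fragments the FPKM total counts, is not stated in the labels or headers used here. Only annotated rows of the mRNA table could be members; the lncRNA table served as an alternative denominator.

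Annotated transcripts were used as deposited and assembled isoforms were summed to their locus. Features whose mean reached 0.5 FPKM were fitted on log2(FPKM + 1) with limma 3.58.1 in R 4.3.3 (two-sided, with group as sole term and an intensity trend, Benjamini-Hochberg over all features, threshold 0.05). This scale understates the change of low features. The procedure was tested on simulated data in which each feature varied independently around its own mean. Differences in library totals and transcripts missing from single libraries were not simulated, so the test does not bear on them. Sums, shares and correlations were computed with pandas 2.3.3 and scipy 1.17.1.

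The members and lists were chosen with earlier results of these data known. Named transcripts were the 10 highest members, the 6 largest rises and the 6 largest falls among called members with groups that do not overlap, and the neighbours of each threshold. As no file pairs identifiers with symbols, 4 are printed by identifier and the others by rank. Alternatives covered the pseudocount, filter, variance model, scaling, denominator, membership and single libraries. No deposited column was left unused.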

Additional observations from a re-analysis of the deposited data

Results flagged for a closer look

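In 102 sets of 5 values, each a quantity per library or a transcript described above in 1 group, the library farthest from the rest was compared with its nearest neighbour. Chance alone marks roughly 1 set in 20 where sets are independent and normally spread, and here 6 were marked. Some of these transcripts were described because of an extreme library, and quantities of the same libraries are tied. The 6 are therefore not set against that rate. The transcript of rank 141 was at 721 FPKM in sham replicate 7, where the next highest sham library was at 5.77 FPKM. The transcript of rank 221 was listed at 0 in MCAO/R replicate 5, and the lowest of the other MCAO/R libraries stood at 99.5 FPKM. Rank 108 was at 384 FPKM in sham replicate 10, with the next sham library at 145 FPKM. Rank 237, the last member, was at 55.9 FPKM in MCAO/R replicate 5 and at 41.7 FPKM in sham replicate 7, with the nearest libraries of each group at 127 and 112 FPKM. Assembled transcripts held 53.8% of the mRNA table in sham replicate 7 and 46.4% in the next sham library.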

How the results depend on the processing

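No paired analysis was possible because the groups share no replicate number. Members called higher numbered 71 as reported and 44 with equal sums over annotated rows outside the set, beside 14.3% and 7.75% of all features. Members called lower numbered 24 as reported and 7 with no filter. Over all features tested, lower calls in these fits numbered 1300 of 25038 and 208 of 295119. With equal sums over all annotated rows and over those outside the set, 53 and 75 members were called lower, beside 9.63% and 13.2% of all features. With quantile normalization the number was 55, beside 10.4%. The median log2 difference was 0.15, and -0.10, -0.18 and -0.068 with equal sums over all annotated rows, with equal sums over those outside the set and with quantile normalization. The ratio of summed FPKM was 1.15, and 0.963 and 0.912 under both equal-sum scalings. The difference in share was 0.20 percentage points, and -1.28 of annotated rows, -0.52 for members of at least 200 FPKM and -0.18 without the condition on the MCAO/R mean. It stayed above 0 at 0.66 of the mRNA and lncRNA tables together and 0.58 for a sham mean of at least 50 FPKM. Of the mRNA table without the 3 left out by name it was 0.015, and without its 20 highest rows 0.69. Pearson's r of log2 means was 0.82 and the mean rho between libraries of different groups 0.66, against a rho of 0.74. Within a narrower fold limit lay 108 members, against 167 within 1.5-fold. Groups without overlap numbered 74 above and 11 below, beside 15.9% and 1.92% of annotated transcripts tested. With equal sums over annotated rows outside the set they numbered 42 and 55. The share over annotated transcripts was not computed for that scaling, so nothing about the members is read from these counts. With equal sums over all annotated rows 42 lay below, beside 4.85%. With each library left out, calls ran from 65 to 72 higher and 11 to 28 lower, the median difference from 0.09 to 0.21, the ratio of sums from 1.11 to 1.18, the share difference from -0.29 to 0.54 percentage points, rho from 0.70 to 0.75, members within 1.5-fold from 152 to 174, and groups without overlap from 74 to 80 above and 11 to 23 below. Over all features, calls in the fits with a library left out ran from 2440 to 3987 higher and from 703 to 1717 lower. The cause of the changes in this paragraph was not tested. For the 14 named members that were called, 19 alternatives each gave no change of direction. Where the groups do not overlap, leaving out a library cannot turn the direction. Members picked for large rises or falls could hardly turn under rescaling either. The call was lost in 12 fits without a library and 7 others, spread over 4 of the 14. The alternatives without uneven transcripts, with group medians, with the rule turned round and with scaled values for rho were chosen after seeing the data.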

Other observations

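For each of the 8 uneven members, the row of either table with the most opposite pattern over the 10 libraries was looked up, a search made after the values were seen. That row was chosen for being high where the member was low, so a more even total follows largely from the search. Adding it gave a total more even than the member alone in all 8. The total ranged over 2.23-fold for rank 42 and 2.01-fold for rank 221. The row found for rank 42, an assembled transcript of the mRNA table, stood at 318, 428, 464, 306 and 355 FPKM in the 5 libraries where rank 42 was listed at 0, and from 1.64 to 3.15 FPKM in the other 5. The total of both ran from 306 to 681 FPKM, where rank 42 alone ran from 0 to 678 FPKM. The row found for rank 221, an assembled transcript of the lncRNA table, was at 60.8 FPKM in MCAO/R replicate 5, the library where rank 221 was listed at 0. The total of both ran from 60.8 to 122 FPKM. For rank 1 the row found reached 30.1 FPKM at most, against 5015 FPKM for the transcript itself, and the total still ranged over 178-fold. For the other 5 it ranged over 4.41-fold to 27.6-fold. The tables give no coordinates, so whether these rows share a locus with the member was not tested.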
